A study of Rattus norvegicus with 9 samples.

Results

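Where primary rat osteoblasts ended after 7 days of thrombin together with the MEK inhibitor PD0325901 (PD03) was described relative to untreated cells, over all genes. The comparison rested on 6 of the 9 libraries of the study, 3 from the PD03 group and 3 from the control group, and the 3 thrombin libraries served to place each gene. All cells were cultured from the calvaria of newborn Sprague-Dawley rats and kept in osteogenic induction medium (the labels' tissue field names the knee, and their growth protocol the calvaria). The control group had the medium alone, the thrombin group had thrombin at 20 U/mL in it, and the PD03 group had thrombin at 20 U/mL with PD03 at 0.1 μM in the paper, whereas a protocol of the labels gives 0.1 mM. No group had PD03 without thrombin, so an effect of the inhibitor on its own and one on the thrombin response cannot be told apart. The samples are called independent in the paper, but whether they came from separate rats or cultures is not given, and p-values measure the spread between these samples.

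Thrombin is a protease of the clotting cascade that signals to cells by cutting protease-activated receptors, and one branch below these receptors is the kinase chain RAS, RAF, MEK and ERK. PD03 blocks MEK, the kinase that activates ERK. Active ERK drives immediate early genes such as the Egr and Fos families and also induces its own inhibitors, the Dusp phosphatases and the Sprouty proteins, so that the RNA of these genes follows the activity of the chain. In cells of the osteoblast lineage the chain is known to take part in proliferation, in cytokine production and in the choice between a proliferating and a differentiated state.

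Total counts were 15447832 to 19841468 per library, and 13256 of 19085 genes had enough counts for a test. The collagen gene Col1a1 took between 6.78% and 6.96% of all counts with PD03 and between 4.18% and 5.05% without it. Results with this gene left out of the scaling are given below. Levels are counts relative to a library total common to all samples (CPM) that was scaled by TMM, a method that sets most genes to no change. The summed level of 12 osteoblast markers lay between 65810 and 72070 CPM without treatment, between 60650 and 63990 CPM with thrombin and between 103100 and 106400 CPM with PD03. That sum was mostly Col1a1, Col1a2 and Sparc, while 3 of the 12 markers (Bglap, Ibsp and Dlx5) had under 10 counts in every library. Marker sums of other cell types moved as well, most of them through 1 gene. Of 6 smooth or skeletal muscle markers 5 are in the table, and they summed to 1465 to 1498 CPM with PD03 against 586 to 691 CPM in control, nearly all of it Acta2, with 2 of 3 tested markers called higher. Schwann or neural markers summed to 95.5 to 99.4 CPM against 39.3 to 46.4 CPM, almost all Tubb3, while Sox10 had too few counts for a test. Endothelial markers summed to 12.02 to 13.99 CPM against 7.88 to 8.90 CPM, with Kdr called higher and Pecam1 too low for a test, and adipocyte markers to 5.08 to 7.84 CPM against 1.96 to 2.59 CPM, mostly Lep. Myeloid markers summed to 17.5 to 19.2 CPM against 20.7 to 23.6 CPM, mostly Cd14, while Csf1r was called higher (log2 fold change 1.47, at 0.857 to 1.68 CPM) and Ptprc was too low for a test. Osteoclast markers, nearly all Ctsk, summed to 169 to 178 CPM against 132 to 142 CPM with none called. Chondrocyte markers summed to 88.7 to 95.8 CPM against 94.4 to 104 CPM, with 4 of 5 called higher and Col2a1 lower, and tenocyte markers to 209 to 218 CPM against 367 to 449 CPM, with 3 of 4 called higher and Egr1 lower. The 4 osteocyte markers summed to 4.93 to 6.98 CPM with PD03 and 3.73 to 4.82 CPM with thrombin against 34.1 to 42.3 CPM in control, nearly all Fgf23. The 1 erythroid marker in the table (Alas2) lay between 0 and 0.389 CPM in all libraries. The part of other cell types in the results was not tested. In bulk RNA, fewer cells of a type and less RNA per cell cannot be told apart.

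Cells given thrombin with PD03 ended away from the control state in many genes. Against control, 649 genes were called higher and 540 lower (8.97% of those tested, 4.9% higher and 4.07% lower), a call being an adjusted p-value under 0.05 from edgeR's quasi-likelihood test with an absolute log2 fold change above 0.58. Thrombin alone had changed 347 genes upwards (2.62%) and 721 downwards (5.44%) against the same control libraries, 8.06% in all. Between the PD03 and thrombin groups 1274 genes were higher (9.61%) and 836 lower (6.31%), 15.9% in all. Since these comparisons share libraries, their counts are given side by side and not as independent results. In 1153 of the 1189 genes called against control the PD03 and control libraries did not overlap, and the same held for 6335 of all 13256 tested genes (47.8%), set beside the 8.97% called.

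The split between higher and lower depended on the scaling. With TMM 54.6% of the calls were higher, with size factors of the RLE type 54.9% (653 higher and 537 lower), with upper quartiles 54.0% (646 and 551), and with TMM after leaving out Col1a1 53.2% (631 and 555). With library totals alone only 34.1% were higher (470 and 907). The deposited FPKM values, which are also scaled to library totals, gave 34.3% with 0.1 added before the log2 (451 and 865) and 36.2% with 1 added (245 and 431). Over all tested genes the median difference was -0.0039 on the log2 scale with TMM and -0.12 with library totals, so each value in this text moves by about that difference under totals. No called gene changed its direction under any of the 7 scalings, and 589 of the 1189 calls (49.5%) held in all of them, 245 higher and 344 lower.

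**Figure D1:**
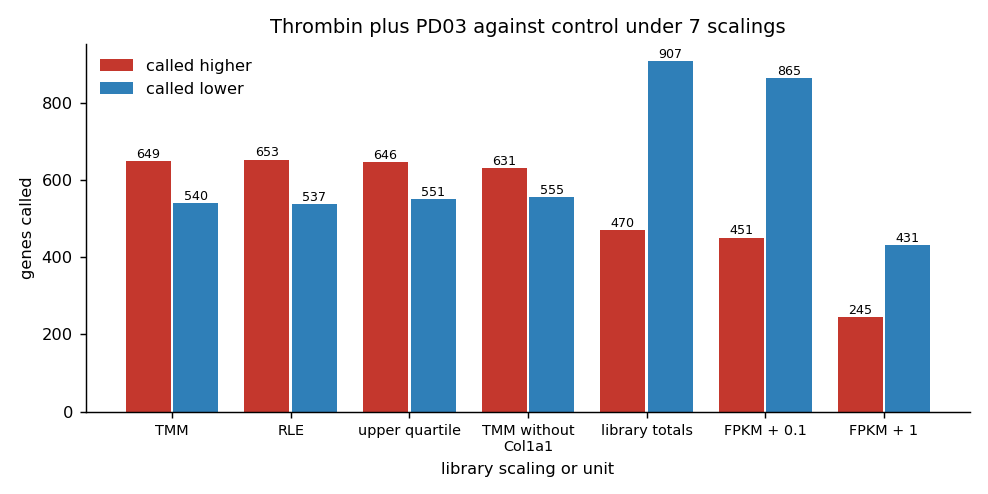
Bars give the number of genes called higher (red) and lower (blue) in the PD03 group than in the control group, on a linear axis from 0, for 5 scalings of the counts and 2 treatments of the deposited FPKM values. Calls higher outnumber calls lower in the 4 scalings on the left (649 and 540 with TMM) and are outnumbered in the 3 that keep library totals (470 and 907).

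Genes were then placed by their 3 comparisons. A gene was back at control when thrombin had changed it and the 95% interval of its PD03 difference from control lay within 0.58 on either side of 0 on the log2 scale. It was past control when PD03 was called on the opposite side of control from thrombin, short of control when both were called on the same side, and newly changed when only PD03 was called against control and also differed from thrombin in that direction. Of the 1068 genes that thrombin changed, 326 (30.5%) were back at control, 167 (15.6%) past it and 197 (18.4%) short of it, and 378 (35.4%) were undecided because their interval reached beyond the limit. Of the 1189 genes called in PD03 against control, 593 (49.9%) were newly changed, 167 (14.0%) past, 197 (16.6%) short, and 232 (19.5%) could be placed in none of these.

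Back at control is a statement about an interval and not about equality. In 141 of the 326 genes the PD03 and control libraries did not overlap, beside 47.8% of all tested genes (6335 of 13256). The median absolute log2 difference from control was 0.16 over all 326. Short of control covered different paths. In 153 of its 197 genes PD03 and thrombin were not called apart, in 23 PD03 lay nearer to control than thrombin did, and in 21 it lay farther away. Among the 593 newly changed genes, thrombin had an adjusted p-value over 0.05 in 451, while in 42 it had moved the gene in the same direction and in 100 in the opposite one, below the limit for a call.

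**Figure D2:**
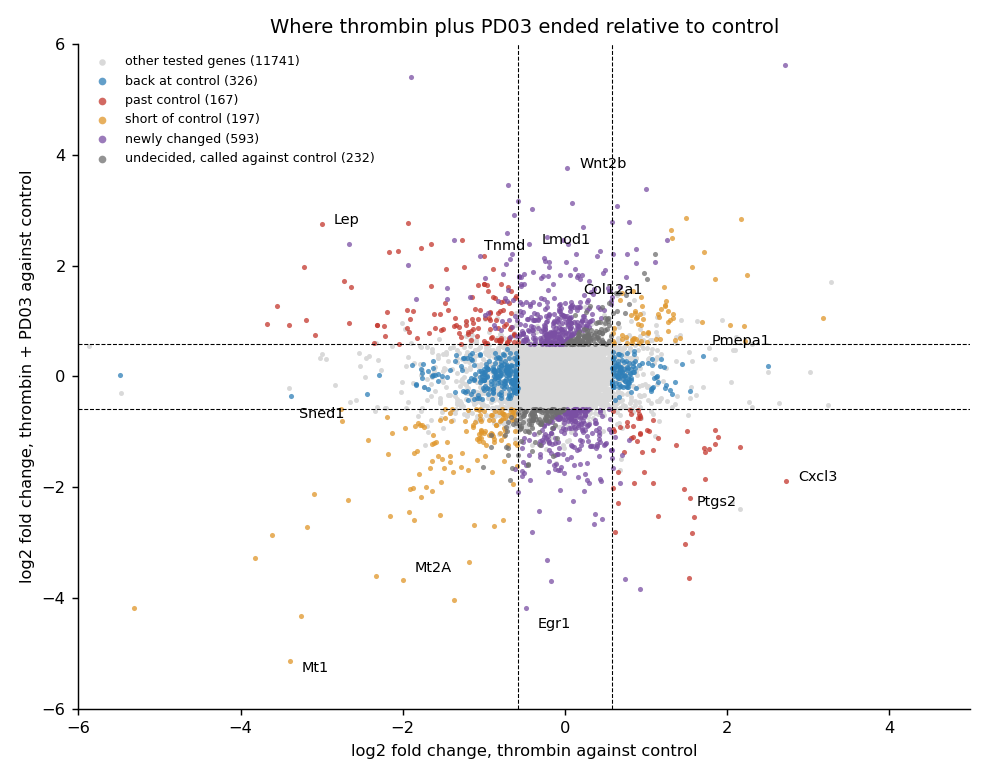
Each point is 1 of the tested genes, with its log2 fold change in thrombin against control on the horizontal axis and in thrombin plus PD03 against control on the vertical axis, coloured by position, and dashed lines mark 0.58 on either side of 0 (3 genes lie outside the axes). Newly changed genes (593) fill the vertical band in the middle, and genes back at control (326) the horizontal one, while Mt1 and Mt2A lie far below control in both comparisons.

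The genes that report on ERK activity stood far below control. Of 34 tested members of a list of MEK-ERK output genes, 22 were called lower and 1 higher, against 4.07% and 4.9% of all genes, with a median log2 fold change of -0.96 (all genes -0.0039). The same list had 5 members higher and 3 lower in thrombin against control, with a median of 0.12, so that 18 of its members counted as newly changed. These shares of all genes, 4.9% higher and 4.07% lower with PD03 and 2.62% and 5.44% with thrombin, are the background for the list counts that follow. It was this list that had the lowest median of all those with 10 or more tested members, and its count of falls was 22 or 23 under the 7 scalings.

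Egr1, an immediate early transcription factor of growth factor signalling, lay at 391, 309 and 318 CPM in the control libraries, 319, 187 and 223 CPM in the thrombin libraries and 17.3, 19.9 and 19.0 CPM in the PD03 libraries. Every PD03 library was far below every other one. With thrombin alone the gene was lower than control by less than the limit for a call (-0.48, adjusted p = 3.12e-05). With PD03 its fall against control was 18.1-fold, a log2 fold change of -4.18 ± 0.12 (SE) with an adjusted p of 6.27e-29. Egr2, a related factor, fell from 17.5, 14.6 and 15.7 CPM to 0.795, 1.17 and 0.979 CPM (log2 fold change -4.03 ± 0.18), and was already lower with thrombin. Dusp6, the phosphatase that removes the activating phosphate from ERK, fell 7.04-fold, from between 28.9 and 31.4 CPM in control to 4.82, 3.11 and 5.02 CPM (log2 fold change -2.80 ± 0.12, adjusted p = 2.05e-22). With thrombin alone it lay at 20.5 to 26.5 CPM, lower than control by less than the limit (-0.40, adjusted p = 0.000846). The group without inhibitor thus did not show it raised at day 7.

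Other feedback inhibitors and targets moved the same way with smaller sizes. Spry4, a Sprouty inhibitor of the chain, had a log2 fold change of -0.87 ± 0.12, and Ccnd1, the cyclin of the G1 phase, one of -1.04 ± 0.06. The Ets factors Etv4, Etv1 and Etv5, whose transcription is known to follow ERK, fell by 2.57, 2.25 and 1.70 on the log2 scale. Fos and Fosl1, parts of the AP-1 dimer, fell by 0.82 and 1.43. Hbegf, a ligand of the EGF receptor, was the one member called higher (0.67, and no member was with library totals), and 11 of the 34 members were not called, Spry1 (-0.13), Jun (0.26) and Myc (-0.57) among them.

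The MEK kinases themselves were not called. Map2k1, which encodes MEK1, lay at 102, 106 and 104 CPM in control and 108, 106 and 107 CPM in the PD03 libraries (log2 fold change 0.03 ± 0.05). Map2k2, which encodes MEK2, had a difference of 0.04 ± 0.05. Of 23 tested components from RAS to ERK, 1 was called higher, Rasgrp1 (0.99 ± 0.12), an activator of RAS, and none lower with TMM, while library totals put 3 lower.

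The promoter of Egr2 is shown because it belongs to a gene with one of the steepest falls, from RefSeq on GRCr8, chr20:21054392-21054691 on the minus strand, written 5′ to 3′ from 250 bases before the start of the gene to 50 bases after it. Capitals mark a CArG box, the element that serum response factor binds.

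Egr2: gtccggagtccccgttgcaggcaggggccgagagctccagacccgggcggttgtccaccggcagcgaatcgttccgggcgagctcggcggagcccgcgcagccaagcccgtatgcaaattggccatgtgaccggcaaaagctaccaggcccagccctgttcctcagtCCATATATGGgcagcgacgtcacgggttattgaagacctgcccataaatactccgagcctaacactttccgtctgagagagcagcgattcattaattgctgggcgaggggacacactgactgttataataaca

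Of the motifs chosen for this comparison none was in this window, and the CArG box was chosen after the sequence had been seen. It occurs, on either strand, in 113 of the 9213 tested genes that have a promoter in the RefSeq table (1.23%). Among such genes it is in 4 of 22 of the MEK-ERK output list, Egr2 itself included, and 3 of 16 of the cytoskeletal list described below. That second list was written to hold targets of serum response factor, so neither count is an independent result, and neither was tested.

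Many chemokine and cytokine genes, though not all, were called below the control level. Of 16 tested chemokines, 10 were called lower in the PD03 group (4.07% of all genes were) and 1 higher (4.9%), with a median of -0.72 and no member back at control. In thrombin against control 5 were higher and 5 lower, beside 2.62% and 5.44% of all genes. In all, 6 chemokines were past control, 4 short of it and 1 newly changed. The count of falls was 9 or 10 under the count scalings and 7 with FPKM and 1 added, where low genes are damped.

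Cxcl3, a neutrophil attractant, lay at 30.9, 31.0 and 30.4 CPM in control, rose to 198, 199 and 216 CPM with thrombin and lay at 7.31, 8.42 and 9.49 CPM with PD03. The 3 groups were fully apart, with PD03 lowest (log2 fold change against control -1.88 ± 0.08, a 3.66-fold fall, adjusted p = 3.92e-22). Cxcl2, of the same subfamily but near the floor at 0.816 to 1.20 CPM in control, stood at 0.053, 0.13 and 0.0612 CPM with PD03. Cxcl1, Cxcl6 and Cxcl16 were past control in the same manner (-1.33, -1.36 and -0.83), and Cxcl14 was past it in the other direction (0.82 after -1.16 with thrombin).

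Cxcl12, the stromal chemokine that holds haematopoietic cells in the marrow, took another course. It lay at 1398, 1409 and 1392 CPM in control, 756, 787 and 768 CPM with thrombin, and 869, 939 and 932 CPM with PD03. PD03 thus stood between the other groups and nearer to thrombin (-0.62 ± 0.03 against control). Ccl2, the monocyte attractant, was not called (-0.24 ± 0.04), with 567 to 674 CPM against 730 to 747 CPM.

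The list of interleukins and cytokines of the gp130 family also holds genes outside these families, such as Csf2 and Csf3. In it 13 of 30 tested members were lower and none higher, with a median of -0.55. Csf2, which encodes GM-CSF, had 100 counts over the 3 control libraries, 153 over the thrombin libraries and 0 in all 3 PD03 libraries. With a floor of 3 counts over the group, its TMM-scaled level was at least 33.7-fold lower than in control. Csf3, which encodes G-CSF, fell from 24.9, 17.1 and 20.0 CPM to 2.65, 3.82 and 4.04 CPM (log2 fold change -2.58 ± 0.14). Il6 fell below the control range of 77.1 to 117 CPM to 51.4, 54.5 and 57.5 CPM (-0.78 ± 0.09), and the thrombin libraries were at 124 to 154 CPM. Without control replicate 1, the highest of its group, the difference was -0.57 and no longer called. Il33 and Lif were past control (-1.16 and -2.20), and the receptors Osmr and Lifr short of it (-0.62 and -0.91). Il1b was at 0.371 to 1.16 CPM with PD03 and 0.379 to 0.884 CPM in control and was not called (0.27 ± 0.44). Thrombin had it higher, at 1.37 to 2.41 CPM. Its position stayed undecided, with a 95% interval of -0.62 to 1.16 on 6 to 19 counts per PD03 or control library.

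Prostaglandin synthesis crossed the control level in 3 enzymes. Pla2g4a, the phospholipase that frees arachidonic acid, lay at 20.1 to 24.4 CPM in control, 32.3 to 39.0 CPM with thrombin and 10.3 to 14.8 CPM with PD03 (-0.91 ± 0.11). Ptgs1, the constitutive cyclooxygenase, lay at 163 to 169 CPM, 311 to 318 CPM and 97.9 to 99.8 CPM (-0.75 ± 0.04). Ptgs2, the inducible one, lay at 110, 74.9 and 85.5 CPM in control, 280, 219 and 254 CPM with thrombin and 19.7, 23.6 and 23.1 CPM with PD03. The PD03 libraries were lowest in each of the 3 genes, and for Ptgs2 the fall against control was 4.08-fold (-2.04 ± 0.10, adjusted p = 2.51e-21). The transporter Slco2a1, which takes prostaglandins up, was short of control (-0.76 ± 0.09), and of the 14 tested members of the pathway 4 were lower and none higher.

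The list of NF-κB subunits, inhibitors and targets did not share this depth. In it 2 of 26 were called lower, one being Ptgs2, and 11 were lower by the adjusted p alone (20.2% of all genes were). Rela, the p65 subunit, lay at 81.0 to 94.3 CPM in control and 88.0 to 88.9 CPM with PD03 (0.01 ± 0.05). Relb, a subunit of the non-canonical branch, was slightly past the limit (-0.59 ± 0.08) and lost its call without control replicate 2 or 3 or PD03 replicate 1 (-0.58 to -0.56). Interferon response and antigen processing genes were lower in 9 of 27 tested members with thrombin and in 5 with PD03. Of these 27, 4 were back at control, such as Irf7 (-0.01 ± 0.15), a regulator of interferon genes, and Gbp2 (-0.80 ± 0.14) and Psmb9 (-0.78 ± 0.12) were short of it.

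**Figure D3:**
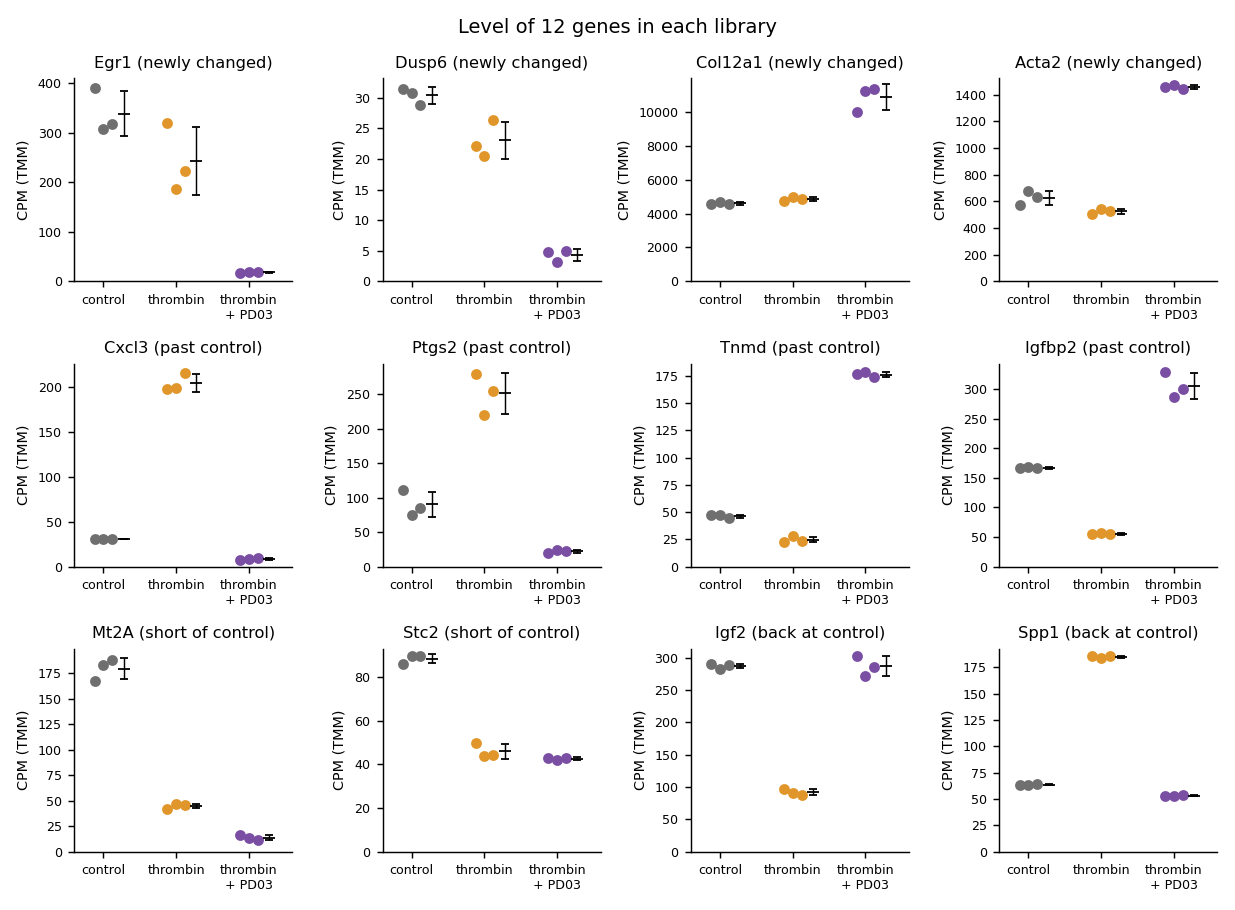
Points are the level of 12 genes in each of the 9 libraries in TMM-scaled CPM on linear axes from 0, and the bar beside each group of 3 gives its mean and SD. Cxcl3 and Ptgs2 with PD03 lie below control after rising with thrombin, Tnmd and Igfbp2 above control after falling, Igf2 and Spp1 near control, and Egr1, Dusp6, Col12a1 and Acta2 apart from both other groups.

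Genes of the actin cytoskeleton were higher with the combined treatment than in control. Of 25 tested cytoskeletal genes and targets of serum response factor, 11 were called higher and none lower, with a median of 0.54, and all 11 were newly changed by the fold limit. By adjusted p alone 22 of 25 were higher, against 19.7% of all genes. Thrombin alone had 3 members called higher and 1 lower, with a median of 0.12, and by adjusted p 13 higher and 5 lower, against 14.1% and 14.6% of all genes. Of the 11 genes called with PD03, thrombin had by adjusted p raised 2, lowered 4 and left 5 over the threshold. With library totals 10 were called and with FPKM and 1 added 8. Acta2, smooth muscle actin, lay at 573, 677 and 631 CPM in control, 507, 545 and 526 CPM with thrombin and 1457, 1474 and 1440 CPM with PD03. That was 2.33-fold above control with no overlap (log2 fold change 1.22 ± 0.04, adjusted p = 9.16e-27). Lmod1, which starts actin filaments in smooth muscle, rose 5.26-fold, from 8.34 to 9.34 CPM in control to 45.9 to 47.8 CPM. Cnn1 and Tagln, which bind actin, had log2 fold changes of 1.55 ± 0.05 and 0.80 ± 0.04, and Cnn1 was just under the limit with thrombin (0.56, adjusted p = 8.68e-11). Myh11, the myosin heavy chain of smooth muscle, was called higher too, at 13.5, 17.3 and 17.1 CPM against 6.80 to 8.91 CPM in control (0.98, adjusted p = 9.89e-09). The cytoplasmic actins Actb and Actg1 were not called (0.30 and 0.54), nor was Srf (0.17). Of the muscle markers, Acta2 and Myh11 were thus called higher, Des was not called (0.15), and Myog and Ckm were too low for a test.

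Genes of tendon and cartilage held the highest median of any list with 10 or more tested members, 0.81 over 17 members, with 12 called higher and 1 lower. With library totals 7 were higher and with FPKM and 1 added 5. Thrombin had moved them both ways, 5 higher and 6 lower, with a median of -0.04. Tnmd, tenomodulin of tendon, lay at 47.0, 46.9 and 44.6 CPM in control, 23.0, 27.9 and 23.7 CPM with thrombin and 177, 178 and 174 CPM with PD03. It was thus lower than control with thrombin and 3.82-fold above it with PD03 (1.93 ± 0.05, adjusted p = 6.27e-29). Fgfr3, a receptor that limits cartilage growth, was past control in the same way (1.66 ± 0.09), as was Gdf5, a joint growth factor, at the lower level of 4.53 to 5.75 CPM (2.46 ± 0.29). Sox9, the cartilage transcription factor, took the other course and was called higher with both treatments, 14.0 to 14.7 CPM with thrombin and 16.0 to 16.4 CPM with PD03 from 7.45 to 8.08 CPM (1.08 ± 0.11). Scx, the tendon transcription factor, stayed above control at 7.25 to 8.14 CPM but below the thrombin level of 11.3 to 13.6 CPM. Its call (0.69 ± 0.15) held in 4 of the 7 scalings.

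The matrix around these cells changed in some members and returned in others. Of 33 tested collagens 6 were higher and 3 lower, and with library totals 3 were higher and 5 lower. Col12a1, a collagen on the surface of fibrils, was the abundant one that rose most, from 4550, 4682 and 4545 CPM in control and 4748 to 4978 CPM with thrombin to 9956, 11217 and 11336 CPM with PD03 (2.36-fold, log2 fold change 1.24 ± 0.03, adjusted p = 2.36e-29). Col1a1 and Col1a2, the chains of type I collagen, had log2 fold changes of 0.60 ± 0.03 and 0.54 ± 0.03. The call of Col1a1 held in 3 of the 6 scalings that tested it and was lost without control replicate 1 (0.56), and Col1a2 was called in none of 7. Col15a1, of basement membranes, fell by 0.98 from 133 to 138 CPM to 65.9 to 71.4 CPM. Col7a1, which anchors epithelia, was back at control, with 9.79 to 11.6 CPM in control, 57.1 to 63.4 CPM with thrombin and 11.6 to 13.1 CPM with PD03.

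Among 36 small leucine-rich proteoglycans and matricellular proteins, 10 were higher and none lower, against 4 higher and 11 lower with thrombin, and 8 returned to control. Cilp, a cartilage matrix protein, went from 20.0 to 20.6 CPM in control to 2.45 to 4.00 CPM with thrombin and to 65.6 to 68.4 CPM with PD03 (1.73 ± 0.08). Dcn and Bgn, the abundant proteoglycans, were not called (-0.09 and -0.25). Loxl2, a crosslinking enzyme of collagen, was higher with PD03 (0.81 ± 0.04) than in control, and Lox was not called (0.39 ± 0.03). Of the matrix proteases, Mmp9 was back at control (12.1 to 13.6 CPM against 13.6 to 15.6 CPM, with 28.6 to 33.2 CPM under thrombin). Mmp13, a collagenase of bone, fell with both treatments and further with PD03 (-1.73 ± 0.16). The metalloproteases thus ended on different sides, and the list of proteases and inhibitors had 5 members higher and 4 lower.

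Osteoblast differentiation and mineralisation genes showed no common direction against control, with 3 of 24 tested members higher, 2 lower and 6 back at control. Spp1, osteopontin, was at 63.1 to 64.6 CPM in control, 184 to 186 CPM with thrombin and 52.9 to 53.6 CPM with PD03, just below control (-0.26 ± 0.05). The phosphate transporter Slc20a1 returned as well (-0.09 ± 0.06). Alpl, the phosphatase that defines mineralising osteoblasts, was low in all groups, at 1.03, 1.39 and 2.59 CPM in control, 0.357, 0.329 and 0.350 CPM with thrombin and 2.54, 2.98 and 3.8 CPM with PD03. It was called higher than control (0.90 ± 0.29, adjusted p = 0.0108), but the PD03 and control libraries overlapped. Runx2, the key factor of the lineage, lay below control without reaching the limit (-0.42 ± 0.07), and Sp7 was not called (0.22 ± 0.18). Mgp, an inhibitor of mineralisation, was the abundant member that fell, from 452, 447 and 473 CPM to 172, 165 and 164 CPM (-1.45 ± 0.04, adjusted p = 2.57e-29), and thrombin had it at 351 to 386 CPM.

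The insulin-like growth factor axis returned in part. Thrombin lowered 9 of its 17 tested members and raised none, with a median of -0.72, and with PD03 the median was -0.0004, with 4 members back at control. Igf2 lay at 289, 283 and 288 CPM in control, 97.5, 90.0 and 88.4 CPM with thrombin and 303, 272 and 286 CPM with PD03 (log2 fold change against control -0.00 ± 0.04). Igf1 overshot slightly within the limit, with 324 to 353 CPM against 233 to 246 CPM (0.50 ± 0.04). The binding protein Igfbp2 went past control, from 166 to 169 CPM to 286 to 329 CPM after 54.4 to 56.9 CPM with thrombin (0.87 ± 0.04). The stanniocalcins Stc1 and Stc2, which inhibit the protease that frees IGFs, parted ways, Stc1 rising to 104 to 118 CPM from 28.8 to 37.1 CPM (1.75 ± 0.07) and Stc2 falling from 86.0 to 89.7 CPM to 41.9 to 43.1 CPM, near the 44.0 to 50.0 CPM of thrombin (-1.05 ± 0.06).

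In the TGF-β and BMP list 10 of 41 were higher and 2 lower, with a median of 0.36. Tgfb3 lay at 33.9, 41.6 and 37.1 CPM in control, 22.1, 18.6 and 21.2 CPM with thrombin and 98.3, 100.2 and 101 CPM with PD03, past control by 2.66-fold (1.41 ± 0.06). Tgfb2 rose newly (1.26 ± 0.08), and Bmp4 was not called (0.37 ± 0.06). Pmepa1, an inhibitor of the TGF-β pathway, came back from 228 to 236 CPM with thrombin to 90.1 to 93.6 CPM, still above the control range of 69.6 to 73.5 CPM (0.37 ± 0.05).

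Of 37 Wnt ligands, receptors and antagonists 10 were higher and 2 lower. Wnt5a, a non-canonical ligand, was back at control (-0.25 ± 0.05) from 222 to 229 CPM with thrombin. Axin2, the feedback target of canonical signalling, stood at 3.56 to 4.70 CPM in both treatments against 1.33 to 2.15 CPM (1.12 ± 0.23), and Nkd1, an inhibitor of the same branch, rose newly with PD03 (1.82 ± 0.16). Wnt2b, a canonical ligand, was almost silent in control and thrombin libraries (0.109 to 0.595 CPM) and reached 3.97, 4.21 and 4.35 CPM with PD03 (3.76 ± 0.39, adjusted p = 8.95e-11). Nearly silent in control as well were the serotonin transporter Slc6a4 and the ectonucleotidase Entpd3, each with 1 count over the 3 control libraries and 1.04 to 1.53 and 1.10 to 1.17 CPM with PD03.

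Promoters of Entpd3 (chr8:129124459-129124758, plus strand) and Wnt2b (chr2:195156896-195157195, minus strand), both from RefSeq on GRCr8 over the same window, are shown as those of the newly changed genes with the largest rises among the ones the table holds. Capitals mark CACGTG, an E-box.

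Entpd3: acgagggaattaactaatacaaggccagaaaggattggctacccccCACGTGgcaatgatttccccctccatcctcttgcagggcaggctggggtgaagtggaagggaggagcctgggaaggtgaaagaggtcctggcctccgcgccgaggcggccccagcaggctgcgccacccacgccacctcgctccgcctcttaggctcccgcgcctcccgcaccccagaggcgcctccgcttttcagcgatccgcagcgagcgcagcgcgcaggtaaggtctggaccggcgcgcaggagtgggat

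Wnt2b: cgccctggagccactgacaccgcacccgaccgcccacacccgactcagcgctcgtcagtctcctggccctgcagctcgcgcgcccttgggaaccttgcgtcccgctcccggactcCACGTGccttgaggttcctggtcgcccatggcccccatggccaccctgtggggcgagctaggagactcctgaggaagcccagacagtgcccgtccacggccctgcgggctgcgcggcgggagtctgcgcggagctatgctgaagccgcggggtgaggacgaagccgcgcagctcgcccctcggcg

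An E-box on either strand is in 9.75% of the 9213 promoters, in 7.94% of those of 428 genes called higher and in 8.24% of those of 352 called lower. The ETS letters CCGGAAGT were in 8.4% of all promoters, in 0.467% of those called higher and in 4.55% of those called lower. The AP-1 letters TGANTCA were in 4.79%, 7.01% and 6.82%. By position they were in 12.1% of 132 promoters short of control and 9.8% of 204 back at control. Of 105 past control 4.76% held them, and of 394 newly changed 6.09%, with no test of these shares. The cyclic AMP element TGACGTCA was in 3.3%, 2.57% and 3.69%, and the extended E-box TCACGTGA, which holds the E-box within it, in 1.76%, 0.701% and 0.852%.

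Proliferation genes lay below control together, by amounts mostly under the limit for a call. In the DNA replication list 7 of 46 were called lower and none higher with a median of -0.43, in the mitosis list 4 of 45 and none with a median of -0.44. By adjusted p alone 38 of 46 and 43 of 45 were lower, against 20.2% of all genes. Thrombin medians for the same lists were 0.21 and 0.16, with no member called, and by adjusted p alone 26 of 46 and 22 of 45 were higher and none lower, against 14.1% and 14.6% of all genes. The calls depended on the scaling, since library totals put 20 and 17 members lower with medians of -0.54 and -0.56. Relative to the median of all genes the medians were -0.42 and -0.44 under both scalings.

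Mki67, the marker of cycling cells, lay at 192, 193 and 183 CPM in control, 223, 222 and 218 CPM with thrombin and 129, 147 and 142 CPM with PD03 (log2 fold change -0.44 ± 0.04). The PD03 libraries were the lowest, though the size was below the limit. Pcna, the DNA polymerase clamp, lay at 71.6 to 74.1 CPM against 88.1 to 94.3 CPM (-0.34 ± 0.05), and Mcm7, a helicase subunit, was called (-0.65 ± 0.05). Ccnd1, named above, was called lower in all 7 scalings, with 38.9, 42.5 and 44.9 CPM against 80.5 to 90.6 CPM. The cell cycle inhibitor Cdkn1a was not called (-0.25 ± 0.05).

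Ribosome production was lower by small steps. By adjusted p 41 of 49 ribosome biogenesis genes and 57 of 80 cytosolic ribosomal proteins were lower and none higher, but 1 and 0 were called, with medians of -0.27 and -0.19. Lysosomal genes lay on the other side. There 40 of 53 were higher by adjusted p and 1 lower (19.7% and 20.2% of all genes), with a median of 0.25 and 1 called, Gla (0.61 ± 0.06), whose call was lost without PD03 replicate 2 (0.57). Lamp1, a lysosomal membrane protein, was at 554 to 590 CPM against 448 to 467 CPM (0.31 ± 0.03), and Ctsk, a collagen-degrading cathepsin, at 159 to 167 CPM against 125 to 134 CPM (0.34 ± 0.04). With library totals no lysosomal gene was called and the median was 0.14. In the RefSeq promoters of 41 lysosomal genes the E-box was found in 24.4% and the extended form in 9.76%, a description with no test. Oxidative phosphorylation subunits (median -0.01 over 69) and sterol and fatty acid synthesis (-0.09 over 37) had no called gene with TMM.

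**Figure D4:**
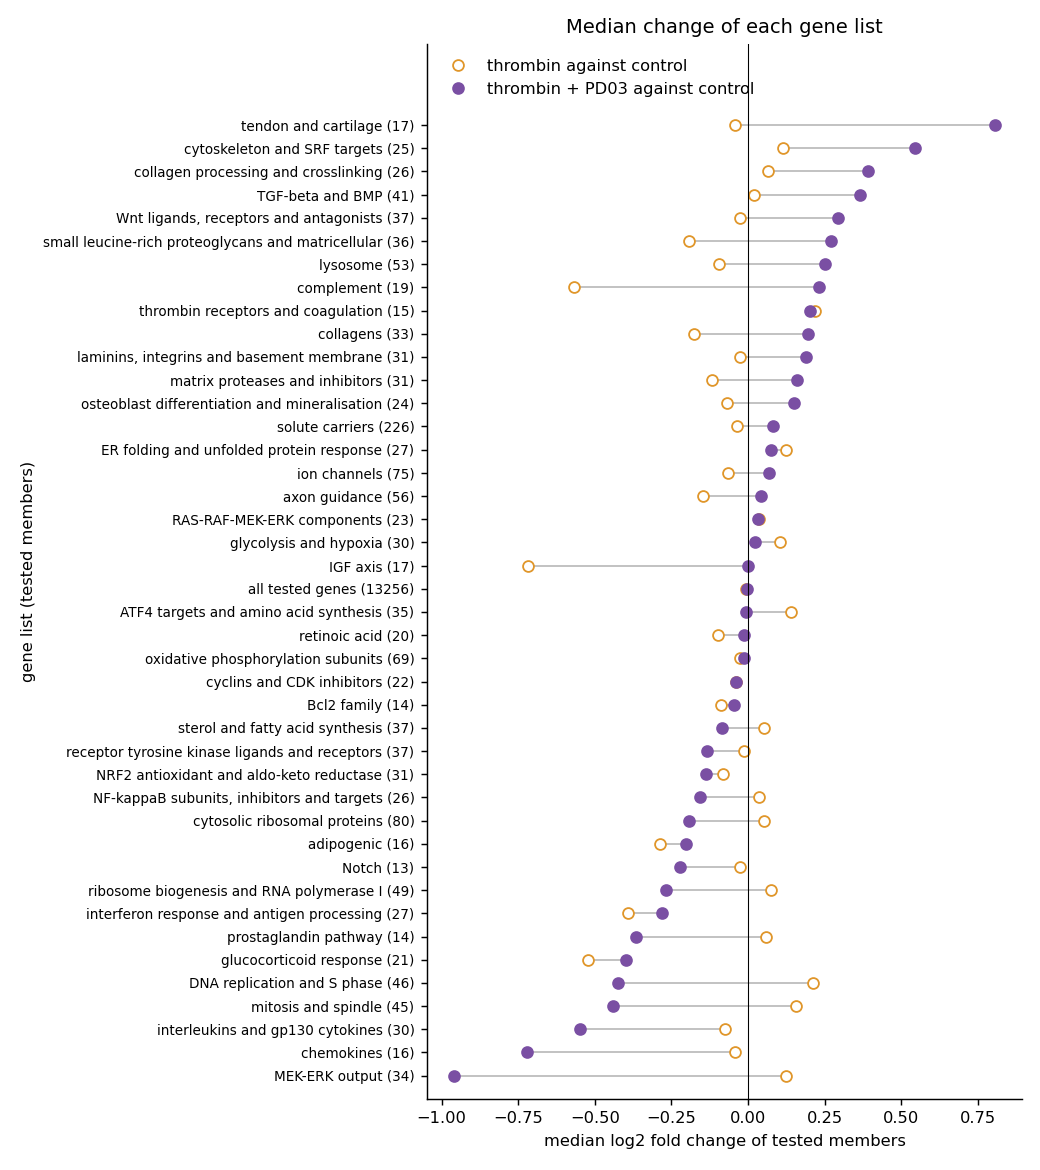
For each gene list with 10 or more tested members, and for all tested genes, an open circle gives the median log2 fold change in thrombin against control and a filled circle that in thrombin plus PD03 against control, with the number of tested members in brackets. MEK-ERK output (-0.96) and chemokines (-0.72) stand lowest and tendon and cartilage (0.81) highest, while the IGF axis moves from -0.72 with thrombin to -0.0004.

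Some losses under thrombin were not regained. The metallothioneins, which bind zinc and copper, went down with thrombin and further with PD03. Mt2A lay at 167, 183 and 188 CPM in control, 42.2, 46.5 and 45.6 CPM with thrombin and 16.2, 13.9 and 11.6 CPM with PD03, a 12.9-fold fall from control (-3.68 ± 0.07, adjusted p = 3.85e-34). Mt1 went from 35.4 to 36.2 CPM to 0.971 to 1.04 CPM (-5.14 ± 0.14). The pseudogene Mt1-ps3 was counted beside it. Whether they share reads was not tested, so how counts were split between them is uncertain. Of 21 tested glucocorticoid response genes, the list that holds both metallothioneins, 6 were lower and 2 higher, and 4 were short of control. Sgk1, a kinase induced by glucocorticoids, fell newly (-1.24 ± 0.05), and the receptor Nr3c1 was not called (-0.40 ± 0.05). Aldh3a1, an aldehyde dehydrogenase, fell with both treatments, from 46.2 to 52.9 CPM to 13.8 to 18.8 CPM with PD03 (-1.65 ± 0.09). Cldn1, a tight junction protein, was near 0 in both treatments from 3.16 to 3.70 CPM in control.

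Genes back at control included some with large thrombin effects. Sned1, a matrix protein, lay at 238 to 242 CPM in control, 22.7 to 23.4 CPM with thrombin and 172 to 198 CPM with PD03 (-0.35 ± 0.04). Adamts15, a matrix protease, came back from 16.6 to 22.4 CPM to 75.6 to 92.9 CPM against 98.8 to 106 CPM (-0.33 ± 0.06). Both returned within the limit and yet stayed below every control library. Complement genes, 9 of 19 of which thrombin lowered, had 3 members higher, none lower and 3 back at control, and C3, the central component, was not called (0.08 ± 0.04). Adipogenic genes had 7 of 16 lower with thrombin and 4 back at control, and 1 was higher with PD03, the hormone gene Lep, at 3.37 to 5.96 CPM against 0.326 to 1.07 CPM.

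Receptors and ligands of receptor tyrosine kinases divided evenly, 7 of 37 higher and 7 lower. Hgf, the ligand of Met, fell 3.34-fold from 31.1 to 35.3 CPM to 8.58, 12.2 and 9.37 CPM (-1.75 ± 0.10), and was not called with thrombin (-0.01). Areg, a ligand of the EGF receptor, fell from 1.83 to 2.18 CPM to 0.13 to 0.612 CPM (-2.67 ± 0.41). Among the genes of the thrombin system itself, F2r, which encodes the receptor PAR1, was higher with PD03 at 447 to 453 CPM against 270 to 293 CPM (0.68 ± 0.04, called in 4 of 7 scalings). F3, tissue factor, rose from 305 to 314 CPM to 546 to 599 CPM (0.90 ± 0.04), and Thbd, the receptor that turns thrombin to protein C activation, fell from 114 to 134 CPM to 62.5 to 66.5 CPM (-0.94 ± 0.06). Of 13 tested Notch genes 2 were called lower (15.4%, against 4.07% of all genes) and none higher, and 4 lay above 0. Rbpj, the DNA-binding partner of Notch, fell by 0.83 ± 0.04, with Hes1, its target, at -0.89 ± 0.11 and Notch1 not called (-0.07).

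Since a gene can be back at control only if thrombin changed it, the positions are read against that number. Of all thrombin-changed genes 30.5% were back at control. None of 10 such chemokines was, 1 of 10 in the interleukin and gp130 cytokine list, 1 of 8 MEK-ERK output genes and 1 of 11 tendon and cartilage genes. Among small leucine-rich proteoglycans and matricellular proteins 8 of 15 were back (53.3%) and among osteoblast genes 6 of 11 (54.5%), while Wnt genes, with 6 of 16 (37.5%), lay near the share over all genes. The lists were chosen with earlier results of these data known, the differences in position between them were not tested, and genes can stand in more than 1 list.

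**Figure D5:**
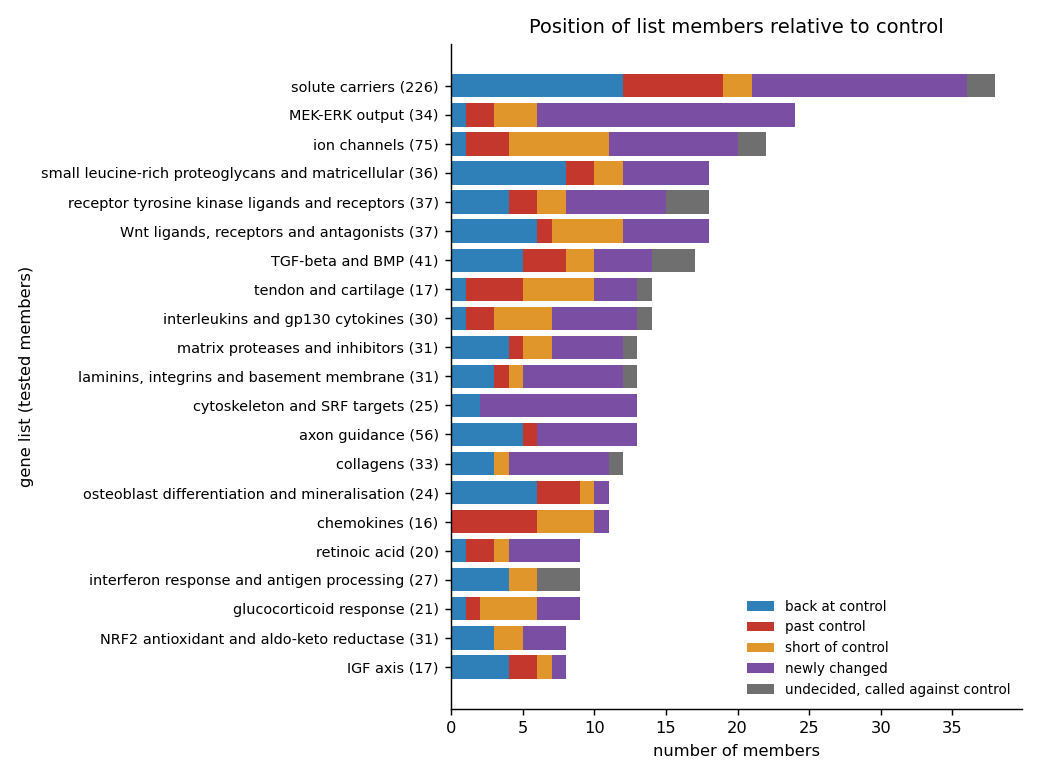
Stacked bars count the members of each list in each position relative to control, for the lists with 8 or more placed members and 10 or more tested ones (tested members in brackets). Cytoskeletal genes are 11 newly changed and 2 back at control, MEK-ERK output 18 newly changed, and chemokines 6 past and 4 short of control with none back.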

How the data were processed

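Messenger RNA was sequenced by the authors in 9 libraries, 3 per group, and results rest on the raw counts. Per the paper, reads were trimmed with fastp, aligned with HISAT2 to Rnor_6.0 and counted per gene with featureCounts, whereas the submitters' processing notes name mRatBN7.2 and HTSeq 0.13.5, and which of them made the deposited table was not settled. The authors deposited a raw count and an FPKM value per gene and library. The FPKM values were taken to be the counts divided by gene length and library total, which was not tested. They were used only as an alternative, after log2 with 0.1 or 1 added, in limma. Neither the annotation release nor the strandedness is named in the paper, labels or files. The table gives no coordinates, and coordinates in the text belong to RefSeq promoters on GRCr8.

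Genes were kept with edgeR's filterByExpr (minimum count 10), scaled by TMM and fitted over all 9 libraries with the quasi-likelihood method (R 4.3.3, edgeR 4.0.16, limma 3.58.1, DESeq2 1.42.0, Python 3.11.15, matplotlib 3.10.9), and p-values were adjusted by Benjamini-Hochberg over all 13256 tested genes. Standard errors were derived from the F statistic. The biological coefficient of variation was 4.28%, and samples of a group differed beyond counting error (chi-square divided by its degrees of freedom, 1.82 to 4.03). Floors cover counting error only. The procedure was tested on simulated data.

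The comparison and the 46 gene lists (1859 genes in the table, 1495 tested) were chosen with earlier results of these data known. Named genes were, with at least 1 CPM and no overlap, the 5 largest rises and falls, the 3 largest in each position, the 3 largest called members and the first 2 members of each list, and the MEK kinases, 194 in all; other names were chosen after their values were seen. A promoter was matched by symbol for 9213 genes (69.5%). Alternatives changed the scaling, filter, test, fold limit, unit, samples and pairing; a correction by gene length was added after seeing the data. A few genes are left unreported.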

Additional observations from a re-analysis of the deposited data

How the results depend on the processing

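The 6 counts of genes against control (higher, lower, back, past, short and newly changed) stayed within 1.5 times under size factors, upper quartiles, Col1a1 removal, no filter, DESeq2 (610 higher, 504 lower) and limma voom (649 and 548), and no call reversed. The 6 libraries of these groups alone, which give no positions, had 651 higher and 526 lower. With library totals 907 genes were lower, and with FPKM and 0.1 added 865. FPKM with 1 added gave 245 higher, 77 past control, 92 short of it and 377 newly changed. A mean count of at least 50 left 130 short of control. Testing against the fold limit itself (glmTreat) gave 286 higher, 213 lower, 146 back, 65 past, 66 short and 281 newly changed. A log2 fold change above 1 gave 281, 238, 88, 53, 74 and 283, and no fold limit 2616, 2673, 1313, 1119, 1086 and 2548; in these the limit itself sets the count. For the named genes, 4405 values under alternatives kept their side of the threshold, 151 lost it and 60 gained it. Leaving out each library in turn gave 622 to 660 higher, 529 to 572 lower, 284 to 356 back, 153 to 170 past, 184 to 198 short and 588 to 614 newly changed.

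With the replicate number as a block, 649 genes were higher and 538 lower. Correlations of deviations between same-numbered libraries of different groups were -0.0456 to 0.0523 over 9 pairs. Of the 9 libraries, 1 correlated best with its own number in both other groups. These correlations run over all tested genes, so they cannot settle whether same-numbered samples shared a culture or batch, which was not tested. Within each group, library 1 differed more from the others (chi-square per degree of freedom 3.06 to 4.03) than libraries 2 and 3 did from each other (1.82 to 2.15).

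Depth limits the genes near 1 CPM or below, such as Slc6a4, Entpd3, Csf2 and Cxcl2. Subtracting the median of genes of like length, chosen after seeing the data, left the medians of MEK-ERK output (-0.96), mitosis (-0.45), ribosomal proteins (-0.18) and lysosome (0.26) near their values. Over 5 bins of gene length the median log2 fold change ran from -0.0268 for the shortest to 0.0161 for the longest.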

Other observations

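Retinoic acid genes were called in both directions, 5 of 20 tested members higher and 3 lower with PD03 against control, and with library totals 3 and 5. Crabp1, which binds retinoic acid in the cytoplasm, lay at 42.0, 50.1 and 46.7 CPM in control, 35.5, 33.2 and 33.2 CPM with thrombin and 19.0, 17.9 and 15.1 CPM with PD03 (log2 fold change -1.41 ± 0.08). Aldh1a2, an enzyme that makes retinoic acid, was short of control (-1.39 ± 0.29), and Aldh1a3, another, rose from 0.218 to 0.316 CPM to 0.971 to 1.59 CPM. In axon guidance 6 of 56 were higher and 2 lower, with library totals 3 and 4, and with FPKM and 1 added 1 and 1. Plxnc1, a semaphorin receptor, went past control to 7.65 to 10.6 CPM from 2.39 to 3.47 CPM (1.61 ± 0.18), and Epha1, an ephrin receptor, fell from 3.98 to 4.95 CPM to 0.954 to 1.81 CPM (-1.85 ± 0.24).

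Of 75 tested ion channel genes 11 were higher (14.7%) and 10 lower (13.3%), against 4.9% and 4.07% of all genes. With library totals 9 were higher and 12 lower, and with FPKM and 1 added 5 and 1. Of 226 solute carriers 14 were higher (6.19%) and 12 lower (5.31%), shares near those of all genes, and with library totals 6 and 16. Kcne4, a subunit that modulates potassium channels, rose from 29.5 to 33.0 CPM to 78.1 to 82.4 CPM (1.38 ± 0.06), and Gja1, the main connexin of osteoblasts, was not called (0.14 ± 0.03). Adcyap1r1, the receptor of the neuropeptide PACAP, lay at 13.5, 13.5 and 12.1 CPM in control, 36.6, 34.7 and 37.5 CPM with thrombin and 1.54, 2.01 and 1.29 CPM with PD03, below control by more than it had stood above it (-3.02 ± 0.15 against 1.47 with thrombin). Vldlr, a lipoprotein receptor, rose from 6.58 to 6.88 CPM to 23.6 to 25.1 CPM (1.86 ± 0.10). Hmox1, which degrades haem, rose to 68.5 to 75.7 CPM from 39.4 to 45.5 CPM (0.76 ± 0.06), while 4 of the 31 tested NRF2 antioxidant genes were lower and 1 was higher.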
